A study of Mus musculus with 4 samples.

Results

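The transcription factor p53, encoded by Trp53, and 9 of its stress target genes (Mdm2, Bbc3, Bax, Ccng1, Sesn1, Trp53inp1, Phlda3, Zmat3 and Gadd45a) were followed in adult mouse heart muscle cells. The 10 genes were taken as a given list, and array probes were assigned to them through their RefSeq accessions. All 10 had a probe, out of 20886 genes that could be named. Trp53inp1 had 2 probes and the others 1 each, which gave 11 of the 39429 probes on the array, and all 11 passed the filter on dim probes. The cells came from 10-week-old male mice of a cross between a line with Cre under the αMHC promoter and a tetO line carrying the factors Oct4, Sox2, Klf4 and Myc (OSKM), so induction is meant for heart muscle. The labels give this cross for both groups and do not say how Cre and the tetO cassette are linked. Control animals received PBS and the others doxycycline by intraperitoneal injection, for 2 days in both cases, and each group is represented by 2 Agilent 1-colour arrays. Animals lacking the factors but given the drug were not among the samples analysed here, so drug and factors cannot be told apart. The labels do not say whether an array holds 1 animal or several, so p-values reflect array-to-array spread, which may be technical.

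p53 is a stress-activated transcription factor that is held low mainly at the protein level, because the ubiquitin ligase Mdm2, itself a p53 target, marks it for degradation. When DNA damage, oncogene activity or nutrient stress releases it, it turns on genes for cell cycle arrest, death, repair and metabolic restraint. Several of these targets also answer to other factors, and in the adult heart, whose muscle cells rarely divide, p53 is studied mostly for cell death and metabolism.

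Levels are given as the log2 processed signal of a probe minus the 75th percentile of its array, so 0 stands for that percentile. Levels of different probes are not on a common scale and are not compared with each other. A difference is the doxycycline mean minus the control mean of this level, with limma's standard error (SE, 2 arrays in each group). Tests were run with limma over all 20092 probes kept by a filter that asked for signal well above background on 2 or more arrays.

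Heart muscle markers were well above background on every array, for 8 of 8 listed genes, and their summed linear levels were 3179 and 3462 for control against 2118 and 2737 for doxycycline. By gene, 5 lay above and 3 below control on average, with a median difference of 0.045, or -0.40 without control array 1. All 6 fibroblast markers lay lower after doxycycline on average, with a median difference of -2.71. Their sums overlapped (66.0 and 214 in control, 76.8 and 82.7 after doxycycline). A sum follows its brightest probe, here Dcn (7.40 and 5.73 in control, 6.22 and 6.29 after doxycycline), so this overlap is mainly that of Dcn. Of the 6 markers, 4 lay below without overlap. Dcn (-0.32) and Pdgfra (-0.33) overlapped and were at 0.52 and 0.50 without control array 1. Control array 1 stood apart, with the higher of the control values for fibroblast, endothelial (34.9 against 16.5), macrophage (12.2 against 4.6) and red cell markers (68.0 against 12.8), and with repeated spots that varied by 10.99% against 4.02% to 4.81% on the other arrays. Macrophage markers summed to 5.58 and 4.03 and red cell markers to 8.93 and 10.3 after doxycycline, with 4 of 6 and 2 of 3 listed genes tested. Of the 4 macrophage markers, 3 lay below control without overlap, while Cd14 lay above on average and overlapped. The median difference of these 4 was -1.219, or -0.652 without control array 1. Both red cell markers lay below without overlap, with a median difference of -1.636, or -0.456 without control array 1. Smooth muscle markers summed to 40.4 and 47.6 in control and to 18.6 and 8.25 after doxycycline (4 of 4 tested). By gene, 2 of these lay above and 2 below control on average, with a median difference of -0.01. Only Acta2 (-2.47) lay below without overlap, and the other 3 overlapped. Endothelial sums after doxycycline were 19.2 and 21.9 (6 of 6 tested). Values without control array 1 are therefore given for each of the 10 genes, for the counts over these 10 and over the wider pathway, and for some of the other genes named. The part of other cell types in them was not tested. In such bulk samples, fewer cells of a type and less RNA per cell cannot be told apart. Of the introduced factors, Myc read -2.34 and -3.21 in control and 1.77 and -0.49 after doxycycline. Klf4 lay at 3.98 and 2.95 against 3.19 and 3.17, and neither passed the test (limma adjusted p = 0.346 and 0.980). No array detected Sox2 well above background, and for Pou5f1, which encodes Oct4, doxycycline array 1 alone did. Whether the probes see the introduced copies is not known, because probe sequences were not used here.

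Of the 10 genes, Trp53inp1 and Sesn1 were the ones that lay higher on both doxycycline arrays than on both control arrays. By group means Trp53inp1 was 3.57-fold higher on its brighter probe and Sesn1 2.10-fold higher. Trp53 itself lay lower on both doxycycline arrays, and the other 7 genes overlapped between the groups. No probe of the 11 passed the test over all probes at an adjusted p under 0.05, and 0% of all 20092 probes did. At an unadjusted p under 0.05 the brighter Trp53inp1 probe passed, as did 6.38% of all probes. The second Trp53inp1 probe entered the test through the doxycycline arrays alone, so its p is not counted. Of the 12542 genes tested, 14.5% were above both controls on both doxycycline arrays and 20.8% below, so 2 of 10 and 1 of 10 genes are near these shares. A permutation test of 2 arrays against 2 cannot give a p below 0.333.

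**Figure D1:**
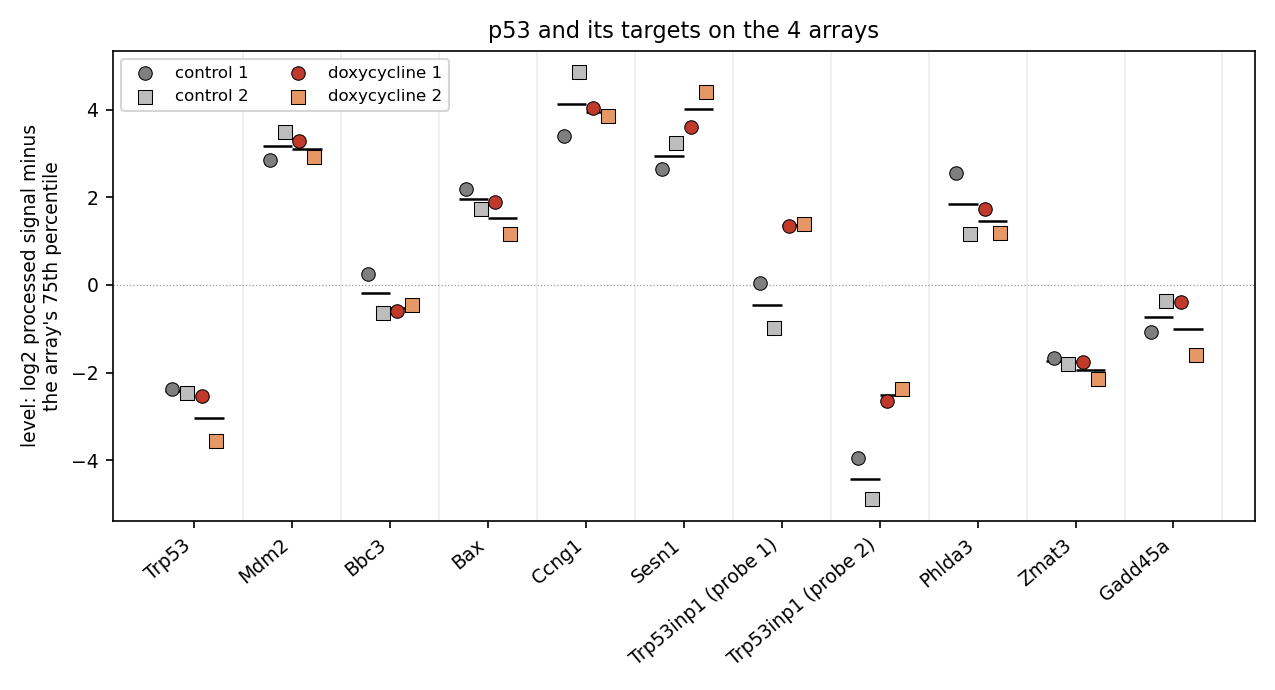
Level of each probe (vertical axis, log2 processed signal minus the 75th percentile of the array) for Trp53 and its 9 targets (horizontal axis, Trp53inp1 with both probes). Grey symbols are control arrays 1 and 2, coloured symbols doxycycline arrays 1 and 2, and bars are group means. Both doxycycline points lie above both control points for Sesn1 and for both Trp53inp1 probes.

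Promoter sequence is shown for the members that separated the groups and have an entry in the promoter table (Sesn1, by its window with a motif, and Trp53). It is also shown for the feedback gene Mdm2 and for Cdkn1a, the p53 target with the largest difference, by its window with motifs. The windows hold the 250 bases before a RefSeq start site in build GRCm38.p6. The 11 windows of 8 members were searched on both strands for the p53 half-site consensus, for the E-box CACGTG that Myc can bind, and for the forkhead motif GTAAACA. No entry was matched for Trp53inp1 and Zmat3. Capitals mark any of the 3 motifs as written on the gene's strand, 5′ to 3′, and no marked motif overlaps another.
Sesn1, chr10:41887189-41887438, plus strand: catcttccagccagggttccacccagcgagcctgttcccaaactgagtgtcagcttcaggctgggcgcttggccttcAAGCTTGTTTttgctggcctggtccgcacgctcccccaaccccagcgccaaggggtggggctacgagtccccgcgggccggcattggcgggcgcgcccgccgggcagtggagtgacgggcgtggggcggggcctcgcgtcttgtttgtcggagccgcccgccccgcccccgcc
Trp53, chr11:69580109-69580358, plus strand: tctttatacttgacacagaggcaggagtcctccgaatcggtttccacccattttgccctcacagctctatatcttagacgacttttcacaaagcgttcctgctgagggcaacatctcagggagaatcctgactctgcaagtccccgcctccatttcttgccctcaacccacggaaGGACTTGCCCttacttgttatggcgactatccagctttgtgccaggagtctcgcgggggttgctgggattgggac
Mdm2, chr10:117710759-117711008, minus strand: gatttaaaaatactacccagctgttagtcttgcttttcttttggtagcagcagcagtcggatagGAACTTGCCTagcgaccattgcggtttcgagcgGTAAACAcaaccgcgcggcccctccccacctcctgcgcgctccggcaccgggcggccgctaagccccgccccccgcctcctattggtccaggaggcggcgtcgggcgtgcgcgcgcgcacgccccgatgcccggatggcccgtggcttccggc
Cdkn1a, chr17:29090729-29090978, plus strand: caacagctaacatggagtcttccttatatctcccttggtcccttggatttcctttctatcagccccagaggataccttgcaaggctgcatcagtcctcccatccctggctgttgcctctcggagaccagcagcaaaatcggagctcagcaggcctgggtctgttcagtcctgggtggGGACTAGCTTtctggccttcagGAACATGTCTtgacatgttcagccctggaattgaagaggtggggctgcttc

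A p53 half-site was found in 6 of the 11 member windows, those of Trp53, Mdm2, Bax, Ccng1, Gadd45a and 1 of the Sesn1 windows, against 7.13% of the 32851 windows searched. These genes were listed as p53 targets to begin with, so the share is a description. The letters were GGACTTGCCC for Trp53, GAACTTGCCT for Mdm2, AGGCAAGCTT for Bax, GGGCAAGCCT for Ccng1, GGGCTAGCCC for Gadd45a and AAGCTTGTTT for Sesn1. They start 75, 186, 201, 185, 40 and 173 bases before the start site. Of these 6 genes, Sesn1 lay higher and Trp53 lower on both doxycycline arrays, and the other 4 overlapped. No member window held a full site, meaning a pair of half-sites at most 13 bases apart, which 0.0639% of all windows did. The upstream window of Cdkn1a held one, with both half-sites in capitals above. The other Cdkn1a window held none of the 3 motifs, and windows were not matched to probes. CACGTG lay in 2 member windows, of Bbc3 and Bax, and in 6.02% of all windows. GTAAACA lay in 2, of Mdm2 and Bbc3, and in 3.17% of all windows. A match is a string of letters and says nothing about binding in these cells.

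Trp53, the factor itself, was a dim but measured transcript. Its level was -2.38 on control array 1, -2.48 on control array 2, -2.53 on doxycycline array 1 and -3.56 on doxycycline array 2. The control arrays and doxycycline array 1 were nearly level, and doxycycline array 2 was the low one. The difference was -0.61 ± 0.48 (SE, limma adjusted p = 0.913), with a 95% interval of -1.76 to 0.54. Without doxycycline array 2 it was -0.10, and without control array 1 it was -0.57. The processed signals behind these levels were 21.6 and 30.7 in control and 43.1 and 16.4 after doxycycline, while the lowest signal called well above background was 8.71 to 11.9 on the 4 arrays. Over the 4 arrays, the genes with a centred profile closest to that of Trp53 were Prr14l, Jpt2 and Rps4l, at root mean square distances of 0.0604, 0.0996 and 0.114. With 4 arrays such likeness is common, and 103 of the 12542 genes lay within a distance of 0.25.

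Mdm2, which closes the feedback loop on p53, stood at 2.85 and 3.50 without doxycycline and at 3.28 and 2.94 after doxycycline. All doxycycline values fell between the control values. The difference was -0.07 ± 0.44 (SE, limma adjusted p = 0.992), with a 95% interval of -1.11 to 0.98, and without control array 1 it was -0.39. The interval limits a change to about 1 log2 unit either way and does not show that there was none. Its paralog Mdm4, an inhibitor of p53 without much ligase activity of its own, read -2.23 and -3.05 against -2.90 and -2.25 on its brighter probe and differed by 0.06 ± 0.48. The other Mdm4 probe gave no signal well above background.

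The death effectors did not separate the groups. Bbc3 encodes PUMA, a BH3-only protein that frees Bax and its relatives to open the mitochondrial outer membrane. The probe read 0.26 and -0.63 in control and -0.60 and -0.46 after doxycycline. Control array 1 was the high value and the other 3 lay close together. The difference was -0.35 ± 0.46 (SE, limma adjusted p = 0.965) and 0.10 without control array 1. Bax, the pore-forming protein, read 2.19 and 1.73 in control and 1.90 and 1.17 after doxycycline. Doxycycline array 2 was the lowest, while doxycycline array 1 lay between the controls. It differed by -0.43 ± 0.45 (SE, limma adjusted p = 0.944) and by -0.20 without control array 1.

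Ccng1, which encodes cyclin G1, a p53 target that binds subunits of the phosphatase PP2A, had the widest gap between the controls of the 10 genes. It read 3.40 and 4.86 on control arrays 1 and 2 and 4.05 and 3.87 after doxycycline, so both doxycycline arrays lay between the controls. The difference was -0.17 ± 0.56 (SE, limma adjusted p = 0.987), and it changed sign with the control left out, at -0.91 without control array 1 and 0.56 without control array 2. Its paralog Ccng2, a cyclin known as a Foxo target, read -3.22 and -2.92 against -3.30 and -2.47 and differed by 0.18 ± 0.46.

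Gadd45a, a stress sensor that activates the p38 kinase pathway, read -1.08 and -0.36 in control and -0.40 and -1.60 on the doxycycline arrays. The doxycycline arrays themselves were 1.21 apart, a wider gap than for 93.7% of the genes. Doxycycline array 1 lay just below the higher control and doxycycline array 2 below both. It differed by -0.28 ± 0.55 (SE, limma adjusted p = 0.982) and by -0.63 without control array 1. The paralogs share this role. Gadd45b read 1.86 and 2.30 against 2.96 and 1.48, a difference of 0.14 ± 0.57 with the same order of the doxycycline arrays. Gadd45g read 5.80 and 5.61 in control and 7.87 and 5.96 after doxycycline. Both doxycycline values exceeded both controls, mainly on doxycycline array 1, and the difference was 1.21 ± 0.65 (SE, limma adjusted p = 0.881).

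Sesn1 encodes a sestrin, a stress protein that restrains the growth kinase complex mTORC1. It read 2.64 and 3.24 in control and 3.61 and 4.41 on the doxycycline arrays. The groups did not overlap, and the arrays within each group were 0.59 and 0.80 apart. The difference was 1.07 ± 0.47 (SE, 2.10-fold, limma unadjusted p = 0.061, adjusted p = 0.824), with a 95% interval of -0.06 to 2.21, and 4.69% of all genes tested lay higher. It stayed positive without any one array, from 0.67 when doxycycline array 2 was dropped to 1.47 when doxycycline array 1 was, and was 0.78 without control array 1. The other sestrins showed no such separation. Sesn2 read -0.67 and -0.89 against -0.76 and -0.76, a difference of 0.02 ± 0.39. Sesn3 read -2.54 and -1.45 against -1.99 and -1.90 and differed by 0.05 ± 0.49. Whether Sesn1 differs from its paralogs in response was not tested.

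Trp53inp1 encodes a stress protein that promotes p53 phosphorylation and takes part in autophagy, and it had the largest difference of the 10 genes. The brighter probe read 0.05 and -0.97 in control and 1.34 and 1.40 on the doxycycline arrays. The doxycycline arrays were 0.058 apart and the controls 1.02, and the groups did not overlap. The difference was 1.83 ± 0.48 (SE, 3.57-fold, limma unadjusted p = 0.0072, adjusted p = 0.425), with a 95% interval of 0.69 to 2.98, and 1.41% of all genes lay higher. Its probe ranked 335 of 20092 by p. Processed signals were 116 and 87.0 for the controls against 629 and 508 for the doxycycline arrays.

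The second Trp53inp1 probe, which carries the same RefSeq accession, lay at the edge of detection and passed the filter through the doxycycline arrays alone, so its direction is no separate support. It read -3.94 and -4.90 in control, where it was not well above background on either array, and -2.66 and -2.38 after doxycycline, where it was on both. It was 2.50-fold higher after doxycycline, counted from the lowest signal well above background on each control array or its own value where higher. That value depends on the background correction and is not a lower limit. The fitted difference of 1.90 (limma adjusted p = 0.401) fell to 0.11 (adjusted p = 0.894) with normexp background correction, against 1.51 for the brighter probe. Control array 1 was the higher control on both probes, so the difference was larger without it, at 2.34 and 2.38, and smaller without control array 2, at 1.33 and 1.42. Both probes of 1 gene on the same RNA are not separate replicates. The paralog Trp53inp2, known for its part in autophagy, read 5.13 and 6.22 against 6.20 and 6.15, a difference of 0.50 ± 0.49 (SE, limma adjusted p = 0.939) that was -0.046 without control array 1.

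Phlda3 and Zmat3 complete the list. Phlda3, a small protein that competes with the kinase AKT for membrane lipids, read 2.55 and 1.17 in control and 1.74 and 1.18 after doxycycline. Control array 1 was the high value, and the difference of -0.40 ± 0.57 (SE, limma adjusted p = 0.965) was 0.29 without it. Its paralog Phlda1 read 0.61 and 1.88 against 3.21 and 1.49 and differed by 1.11 ± 0.70, with overlap. Phlda2 signal was nowhere well above background. Zmat3, a zinc finger protein that binds RNA, read -1.66 and -1.80 in control and -1.75 and -2.15 after doxycycline. Its controls were 0.14 apart, and it differed by -0.22 ± 0.40 (SE, limma adjusted p = 0.981), with a 95% interval of -1.18 to 0.75, and by -0.15 without control array 1.

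**Figure D2:**
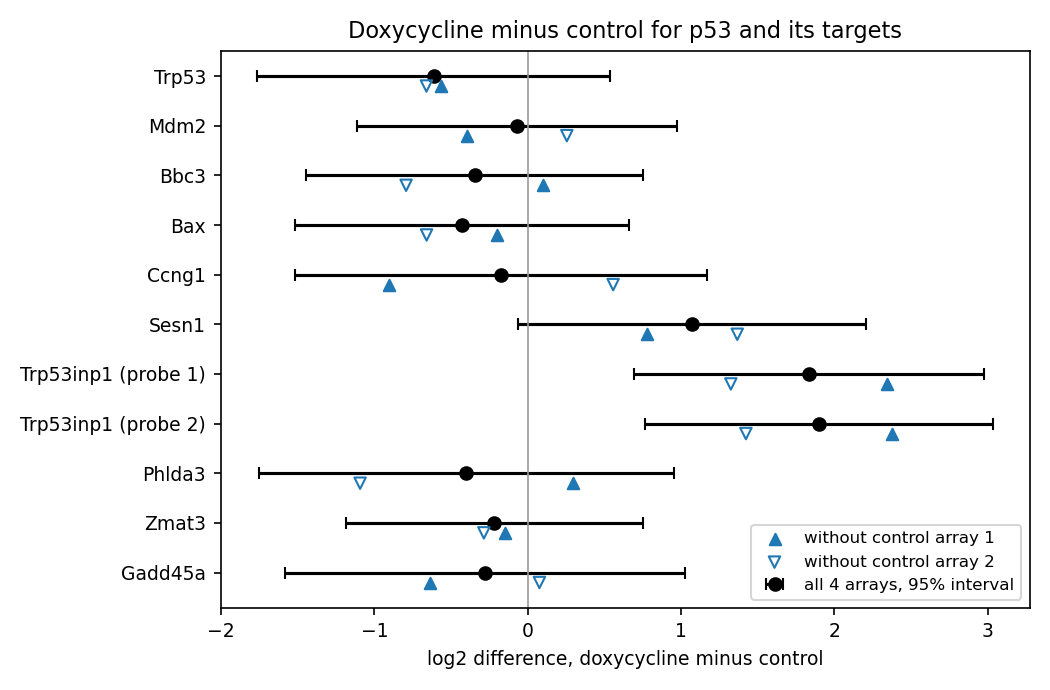
Log2 difference between doxycycline and control (horizontal axis) for each of the 11 probes (vertical axis), with the 95% interval of the limma fit, and with control array 1 or control array 2 left out (triangles). Before adjustment the interval of the brighter Trp53inp1 probe lies above 0, as does that of the second, which the doxycycline arrays alone brought into the test. The triangles of Mdm2, Bbc3, Ccng1, Phlda3 and Gadd45a fall on either side of 0.

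Taken as a list, 8 of the 10 genes lay below control on average and 2 above, where 45.2% of all genes lay above, although scaling to the array median turned this to 3 below and 7 above, and normexp background correction to 7 below and 3 above. The median difference over the 10 genes was -0.25, beside -0.06 over all 12542 genes. Scaling to the array median raised the median of all genes to 0.29 and that of the list to 0.10. With 1 array left out the list's median ran from -0.35 to -0.04, with 4 genes above and 6 below control without control array 1 or without doxycycline array 2, and 5 on each side without control array 2. The list lay 0.19 below all genes with either scaling and 0.067 below without control array 1. Its offset from all genes was -0.29 without doxycycline array 1 and -0.22 with quantile normalization. It lay above all genes by 0.0095 without doxycycline array 2 and by 0.062 with no filter on dim probes. For 6 of the 10 genes the gap between the control arrays was wider than the difference between the groups, and for 7 the gap between the doxycycline arrays was. Trp53inp1 and Sesn1 were the 2 whose difference exceeded both gaps. The median gap between the controls was 0.68 in the list and 0.68 over all genes.

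**Figure D3:**
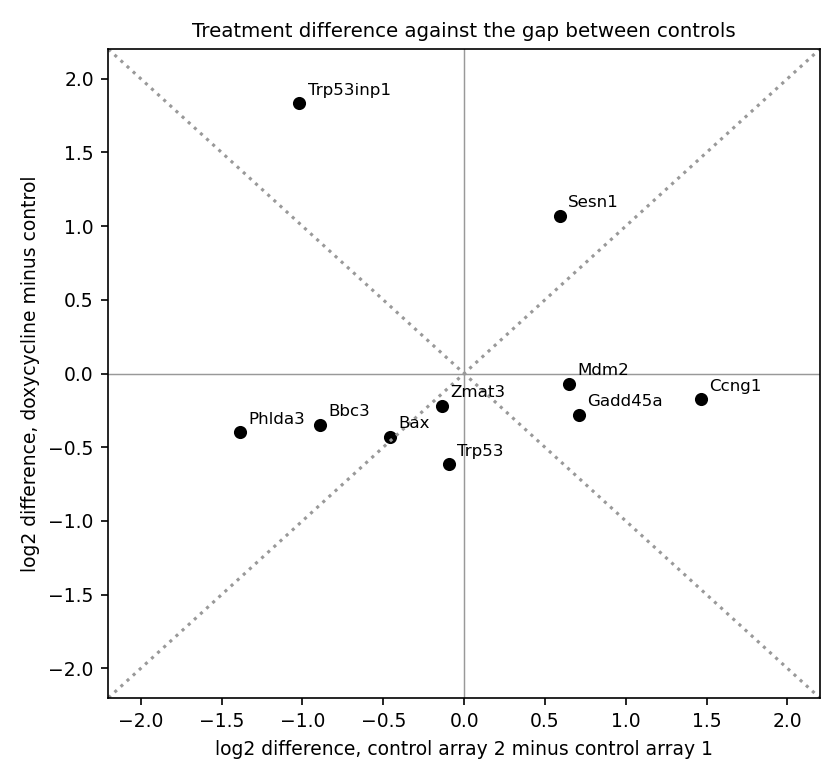
Difference between doxycycline and control (vertical axis, log2) against the difference between control array 2 and control array 1 (horizontal axis, log2), 1 point per gene (Trp53inp1 by its brighter probe). Dotted lines mark equal size. Trp53inp1 and Sesn1 lie above the dotted lines, while Ccng1, Phlda3, Bbc3, Mdm2, Bax and Gadd45a lie closer to the horizontal axis than to the vertical one.

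The wider p53 pathway was described through 7 partly overlapping lists of 80 further genes, chosen by role with earlier results known, of which 68 could be tested. Of the 68, 38 lay above control and 30 below, where 45.2% of all genes lay above. Without overlap, 14 lay higher and 7 lower (beside 14.5% and 20.8% of all genes). Without control array 1 the balance turned, to 30 of the 68 above control, where 5215 of all 12542 genes lay above. Their median difference was 0.03, beside -0.06 over all genes, and -0.03 beside -0.11 without control array 1. None passed the test over all probes, and at an unadjusted p under 0.05 there were 4 higher and 2 lower, where 3.17% and 3.87% of all genes were. The 4 were Cdkn1a, Btg2, Fas and Ddit4, and the 2 were Bok and Chek2, of which Chek2 passed the filter through the control arrays alone, so its p is no fair test.

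Among the arrest targets, 5 of 9 were tested, with 3 above and 2 below control. Cdkn1a, the p21 inhibitor of cyclin-dependent kinases and the classic arrest target, read 0.93 and -0.20 in control and 4.39 and 3.64 after doxycycline. Every doxycycline array exceeded every control, and the difference was 3.65 ± 0.54 (SE, limma adjusted p = 0.203) and 4.22 without control array 1. A second, dimmer Cdkn1a probe, assigned to another transcript of the gene and well above background on 1 array of each group, read -2.35 and -4.04 against -3.75 and -4.20 and differed by -0.78 ± 0.62 (0.063 without control array 1). The probes of this gene therefore disagreed in direction over all 4 arrays. Btg2, which slows proliferation, differed by 1.33 ± 0.48 (SE, limma adjusted p = 0.703) and by 1.22 without control array 1, with 2.81 and 3.03 against 4.76 and 3.73. Sfn and Plk2 differed by -0.96 and -0.31, or by -0.32 and 0.25 without control array 1. Sfn was well above background on 1 array of each group.

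Death receptors and the BCL2 family gave mixed values. Of the death targets, 8 of 12 were tested, with 6 above and 2 below control. Fas, the death receptor, read 1.56 and 0.69 in control and 3.18 and 2.28 after doxycycline, a difference of 1.60 ± 0.52 (SE, limma adjusted p = 0.593) and of 2.04 without control array 1. The receptor gene Tnfrsf10b differed by 0.83 with overlap (1.58 without control array 1), Siva1 by -0.70 and Bid by 0.37. Pmaip1, which encodes NOXA, was well above background on doxycycline array 1 alone. Of 13 BCL2 family genes, 12 were tested, with 5 above and 7 below control and a median of -0.24. Bcl2l1, whose main product BCL-XL protects cells, lay higher on both probes without overlap, by 0.87 ± 0.43 and 1.29 ± 0.45 (limma adjusted p = 0.859 and 0.659). Bok, a Bax relative, read -1.03 and -1.84 against -2.95 and -2.95, a difference of -1.52 ± 0.45 (SE, limma adjusted p = 0.528) and of -1.11 without control array 1. Bcl2l11, which encodes BIM, differed by 0.60 and Hrk by -1.15, or by 0.23 and -0.40 without control array 1. Hrk was well above background on 1 array of each group.

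Of the 12 metabolic and redox targets, all were tested, with 5 above and 7 below control and a median of -0.29. Ddit4, which like the sestrins restrains mTORC1, read 3.71 and 4.30 in control and 5.10 and 6.03 after doxycycline. It differed by 1.56 ± 0.49 (SE, limma adjusted p = 0.580) and by 1.26 without control array 1. The order of the 4 arrays was that of Sesn1, but the share of all genes with this order was not counted. Both doxycycline arrays lay above both controls for 14.5% of all genes. Pank1 (0.89), Ephx1 (-0.85) and Steap3 (-0.50) were the next by p. Without control array 1 they were at -0.0073, 0.17 and -0.46. Repair targets moved little, with 6 of 7 tested, 3 on each side of control and none beyond 1 log2 unit. Xpc, a sensor of DNA damage, differed by 0.59, Ercc5 by 0.50, Polk by -0.96 and Rrm2b by -0.18.

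The regulators of p53 were even, with 20 of 22 tested, 11 above and 9 below control and a median of 0.04. Chek2, a kinase that signals DNA damage to p53, read -2.10 and -3.52 in control, while both doxycycline readings were not well above background. It was 2.68-fold lower after doxycycline, counted to the lowest signal well above background on each doxycycline array or its own value where higher. That value depends on the background correction and is not a lower limit. The fitted difference of -3.11 (limma adjusted p = 0.293) was -0.85 (adjusted p = 0.689) with normexp background correction. Ep300, an acetyltransferase that p53 recruits, differed by 1.92 ± 1.05, which came from doxycycline array 1 alone, since it read -2.66 and -2.95 in control and 0.89 and -2.66 on the doxycycline arrays. The kinase gene Hipk2 differed by 0.64 and 0.61 on its probes and Ppp1r13l, an inhibitor of p53, by 0.81, all without overlap. Without control array 1 these fell to 0.17 and 0.46 for Hipk2 and to 0.17 for Ppp1r13l. The p53 relatives Trp63 and Trp73 differed by -0.38 and -0.21 on the probes that passed the filter. The other probes of both genes gave no signal well above background on any array, so the probes of each gene disagreed on detection. Cdkn2a and Chek1 did not pass the filter on dim probes.

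**Figure D4:**
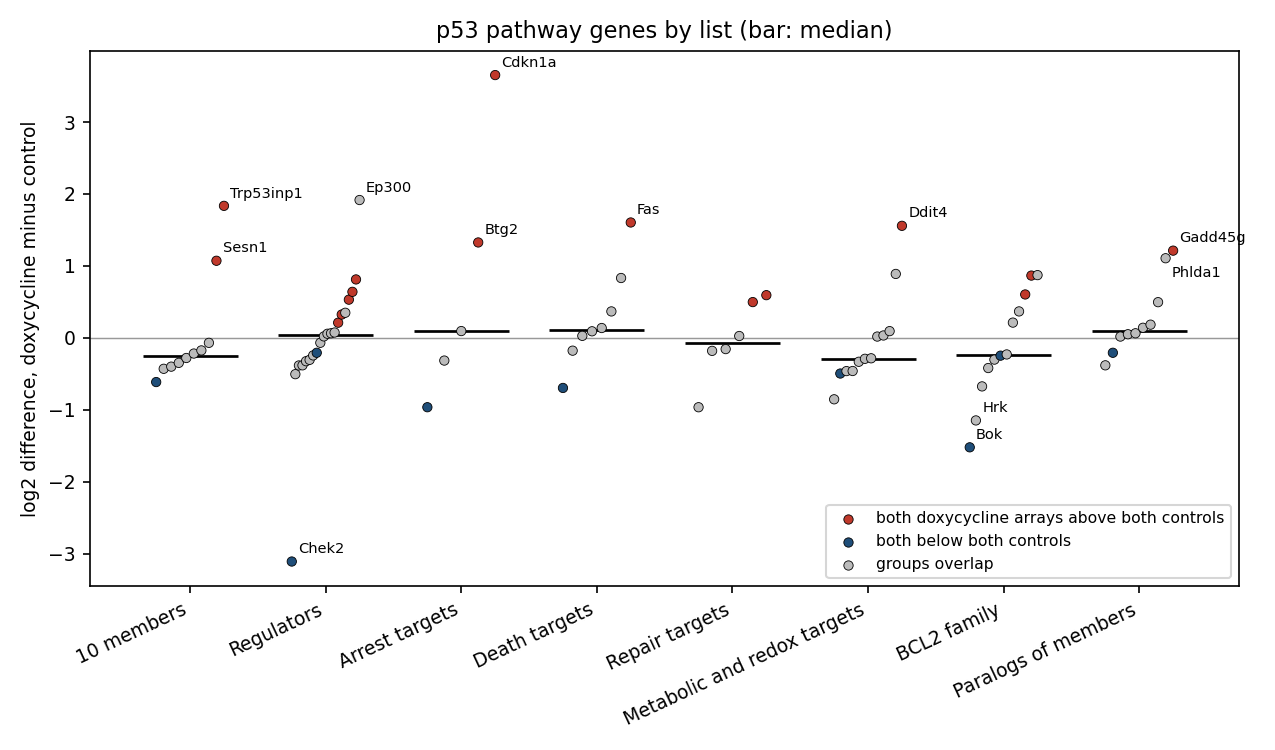
Log2 difference between doxycycline and control (vertical axis) for the 10 genes and the 7 further p53 pathway lists (horizontal axis), 1 point per tested gene, bars at list medians. Red points are genes with both doxycycline arrays above both controls, blue points those with both below, and grey points overlap. Medians lie between -0.29 and 0.11, while Cdkn1a at 3.65 and Chek2 at a fitted -3.11 lie farthest out. Chek2 was not well above background after doxycycline.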

How the data were processed

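Per the file headers, the authors read each spot's Cy3 intensity with Feature Extraction 10.7.1.1, which removed background and a spatial trend and gave a linear processed intensity. Other deposited columns flag detection, saturation and outlying spots. No spot was saturated. All arrays lay on 1 slide scanned on 1 day, with the controls at positions 1 and 2 and doxycycline at 3 and 4, so position and treatment cannot be told apart.

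Each array's 75th percentile of non-control spots was subtracted after log2, outlier spots were left out (35 probes lost) and repeated spots averaged. Probes needed 0.5 of their spots well above background on 2 or more arrays. Accessions were named through a RefSeq table of GRCm38.p6 (27508 probes), for names only, while the files' design build is mm9. Promoter windows are RefSeq's and leave out chromosome 18.

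Differences were tested with limma 3.58.1 in R 4.3.3, two-sided, on all kept probes, with Benjamini-Hochberg adjustment. The prior degrees of freedom were 4.6. Lists use the brightest kept probe of a gene. The fit was tested on simulated data. The members, lists and alternatives were chosen with earlier results of these data known. All members, the introduced factors, the members' paralogs, Cdkn1a and up to 4 genes per list with the smallest p are named.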

Additional observations from a re-analysis of the deposited data

How the results depend on the processing

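The count of probes called was 0 as reported (1281 at an unadjusted p under 0.05). It was 152 with scaling to the array median, 31 with no filter on dim probes, and 0 to 92 with 1 array left out, the 92 without doxycycline array 2. With the replicate number as a block it was 364. The labels state no pairing, and same-numbered arrays did not deviate together over all genes (r = -0.085). Whether a pairing affects some of the genes cannot be told from this single correlation. The block fit put all probes on 1 common variance and changed no member's call. An unadjusted p under 0.05 with a log2 difference of at least 1 gave 1262 probes, 2 of them members, both of Trp53inp1. No other alternative called a member. Cdkn1a passed with median scaling, no filter, the block or doxycycline array 2 left out, Chek2 with median scaling or the block, and Ep300 without doxycycline array 2. Of 152 member values under alternatives, 139 kept their direction and 13 reversed. Scaling to the array median reversed Mdm2 (0.28), Bbc3 (0.00053), Ccng1 (0.17), Zmat3 (0.13), Gadd45a (0.068), Plk2 (0.032) and Rrm2b (0.17), and moved the median of the 68 other pathway genes to 0.38. Normexp reversed Mdm2 (0.064), Bid (-0.077) and Bcl2l11 (-0.17), and quantile normalization Rrm2b (0.16). Normexp also shrank several dim probes, from 1.90 to 0.11 for the second Trp53inp1 probe, from -3.11 to -0.85 for Chek2, from 1.92 to 0.87 for Ep300 and from -1.52 to -0.76 for Bok. The number of member genes wholly below control was 2 with normexp and 0 with quantile normalization or median scaling. With 1 array left out it was 1 to 5, and that wholly above 2 to 4, since fewer arrays overlap less. Ranges with 1 array left out were -0.39 to 0.26 for Mdm2, -0.79 to 0.10 for Bbc3, -0.91 to 0.56 for Ccng1, -1.09 to 0.29 for Phlda3 and -0.88 to 0.32 for Gadd45a. They were -0.88 to 0.25 for Plk2, -0.47 to 1.21 for Bid, -0.39 to 0.027 for Rrm2b, -0.0073 to 1.78 for Pank1, -1.87 to 0.17 for Ephx1 and -0.046 to 1.04 for Trp53inp2. Array weights, added after seeing the data, reversed none. The 2 arrays a group and the dim Trp53 signals limit precision. For the other shifts the cause was not tested.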
